A study of Homo sapiens with 6 samples.

Results

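Chromatin remodelers other than INO80 itself, and the genes that make and handle the histone variant H2A.Z, were followed in HK-2 cells after INO80 knockdown. The line, also called Human Kidney-2, derives from human renal proximal tubule, was immortalized, and is wild type per the labels. The 3 control siRNA libraries came from cells given a non-targeting siRNA pool, and the 3 INO80 siRNA libraries from cells given a pool of siRNAs against INO80. Both groups were transfected with RNAiMax, and RNA was harvested after 48 h from cells kept in the same serum-containing medium. The knockdown is transient, and the labels do not say whether libraries of a group came from separate cultures, so p-values measure only the spread between these libraries. The genes were taken by symbol from a list of 42 that covers the SWI/SNF, ISWI and CHD remodelers, SRCAP, EP400, ATRX and HELLS, the subunits that INO80 shares with other complexes, and the H2A.Z genes with their chaperone. All 42 were found once among the 57905 genes of the table, and all 42 passed the filter on low counts that left 15343 genes for testing.

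Chromatin remodelers use the energy of ATP to slide, evict or rebuild nucleosomes, the units of DNA wrapped around histone proteins. Their motor subunits fall into families. SWI/SNF complexes open chromatin at promoters and enhancers, ISWI complexes space nucleosomes, several CHD proteins read methylated histones or act in the repressive NuRD complex, and SRCAP and EP400 exchange the ordinary histone H2A for H2A.Z. INO80 belongs to the same family as SRCAP and EP400, shares several subunits with their complexes, and has been linked to the removal of H2A.Z.

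The sequences below are the windows around the start sites of H2AFZ, the most abundant of the 42 transcripts, and HELLS, the transcript with the largest fold change. They come from RefSeq on GRCh38.p14, run from 250 bases before the start to 50 after it, and are written 5′ to 3′ on the strand of the gene. HELLS lies at chr10:94545538-94545837 on the plus strand and H2AFZ, named H2AZ1 there, at chr4:99950226-99950525 on the minus strand. Capitals mark 3 kinds of letters on either strand. They are CCAAT, a box bound by the factor NF-Y, then TATAAA, the TATA box, and the E2F letters, which are any of TTTCCCGC, TTTCGCGC, TTTGCCGC and TTTGGCGC.
HELLS: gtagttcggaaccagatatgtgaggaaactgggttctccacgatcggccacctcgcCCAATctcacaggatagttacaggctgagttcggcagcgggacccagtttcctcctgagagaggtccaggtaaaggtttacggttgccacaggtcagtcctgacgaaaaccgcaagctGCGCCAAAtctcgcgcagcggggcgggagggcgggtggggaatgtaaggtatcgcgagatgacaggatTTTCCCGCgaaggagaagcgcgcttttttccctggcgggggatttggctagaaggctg
H2AFZ: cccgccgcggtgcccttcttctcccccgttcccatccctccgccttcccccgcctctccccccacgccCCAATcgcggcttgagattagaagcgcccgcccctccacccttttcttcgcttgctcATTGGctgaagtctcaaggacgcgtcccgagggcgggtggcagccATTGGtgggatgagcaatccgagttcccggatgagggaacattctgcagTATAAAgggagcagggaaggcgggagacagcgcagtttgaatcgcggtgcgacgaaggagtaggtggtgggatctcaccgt
In HELLS, E2F letters begin 76 bases before the start on the reverse strand and 8 bases before it on the forward strand, and CCAAT begins 194 bases before it. In H2AFZ, CCAAT or its reverse begins 182, 125 and 80 bases before the start, and TATAAA begins 31 bases before it. Windows were matched for 32 of the 42 genes. HELLS was the single match to the E2F letters, or 3.12% of the 32 against 3.33% of 27305 promoters of the same length. CCAAT stood in 13 of the 32 (40.6%, against 35.7% of all), TATAAA in 2 (RUVBL1 and H2AFZ; 6.25% against 12%), and the YY1 letters AAGATGGC in 1 (SMARCD1; 3.12% against 3.03%). These are matches of letters, and none was tested as a binding site.

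INO80 (ENSG00000128908, chromosome 15, 41271078 to 41408552 in GRCh37 coordinates) was measured at 6.43, 7.07 and 7.75 FPKM under control siRNA and at 1.91, 1.75 and 2.06 FPKM under INO80 siRNA. FPKM is the count scaled by the exonic length of the gene and the total of the library, so it allows levels to be compared between genes. The groups lay far apart, with a log2 fold change of -1.90 ± 0.0956 (SE, n = 3 per group) and an adjusted p of 0.000161 in edgeR's quasi-likelihood test. The depth was 16829273 to 20311588 counts under control siRNA and 20678008 to 23784599 under INO80 siRNA. Renal epithelial markers were present for 6 of 8 genes, PAX8, KRT8 and KRT18 among them, with a summed level of 486 to 546 FPKM under control siRNA and 443 to 545 FPKM under INO80 siRNA, while PAX2 and CDH1 were near 0. Of 9 proximal tubule markers 2 reached 1 FPKM, GGT1 and MME, and the transporters and receptors LRP2, CUBN, AQP1, SLC34A1 and SLC22A6 were at or near 0 in both groups. Fibroblast genes reached 1 FPKM for 3 of 7 (COL1A1, DCN and LUM, 50.6 to 116 against 49.4 to 101 FPKM summed), leukocyte genes for 1 of 5 (CSF1R, with PTPRC and CD3E at 0) and endothelial genes for 0 of 3. With the treatment alone edgeR called no marker. With the replicate block, the fit described below that takes replicate numbers into account, it called 4 of 6 tested renal epithelial genes (PAX8, KRT19 and EPCAM lower, KRT18 higher), 3 of 4 fibroblast genes (COL1A1 and DCN higher, LUM lower), the 1 leukocyte gene tested (CSF1R, lower) and 0 of 3 proximal tubule genes. Calls were common in that fit, which called 24.8% of all tested genes. EPCAM was at 41.78, 48.69 and 46.01 FPKM under control siRNA and at 31.87, 40.33 and 38.74 FPKM under INO80 siRNA, with no overlap, and DESeq2 called it too (adjusted p 0.0415). The part of these genes, or of any other cell type, in the results was not tested. In bulk libraries such as these, fewer cells of a type and less RNA per cell cannot be told apart.

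None of the 42 genes passed an adjusted p of 0.05 when the treatment alone was fitted with edgeR, against 1.75% of all tested genes. The smallest adjusted p among them was 0.0996, for ATRX. At an unadjusted p under 0.05, 10 of the 42 were lower under INO80 siRNA (23.8%, against 9.2% of all tested genes) and 1 was higher (2.38%, against 7.18%). The 42 genes had a median control level of 12.1 FPKM and a median exonic length of 8470 bases. Over all tested genes these medians were 4.61 FPKM and 4355 bases, and no share of all tested genes given here was matched for level or length. DESeq2 called 1 of the 42, HELLS, where it called 4.93% of all genes it gave an adjusted p. The changes were small throughout. Log2 fold changes ran from -0.38 to 0.27, with 25 below 0 and 17 above it and a median of -0.038, beside a median of 0.007 over all tested genes. For 41 of the 42 genes the 95% interval of the fold change lay within 1.5-fold in either direction, and HELLS was the exception. The same held for 10026 of all 15343 tested genes, whose median level was lower.

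The call depended on whether the replicate numbers were used. Libraries of the same number deviated together, so the fit was repeated with the replicate number as a block, and edgeR then called 13 of the 42 genes (31%, against 24.8% of all tested genes). Of these, 11 were lower (26.2%, against 13.4% of all tested genes): SMARCC1, ARID1A, ARID1B, BPTF, CHD1, CHD2, CHD3, CHD9, HELLS, ATRX and ANP32E. The other 2, CHD6 and CHD7, were higher (4.76%, against 11.4%). DESeq2 with the block called 12 of these 13, all but SMARCC1, where it called 15% of all genes it gave an adjusted p. When each pair of libraries was left out in turn, 11 of the 13 were called in all 3 fits, and ARID1A and SMARCC1 were not. Those fits called 14.6% to 25.4% of all tested genes. How many of all tested genes were called in all 3 is not given, so the 11 cannot be set against a background. Without any model, the 3 INO80 siRNA values lay wholly below the 3 control values for 11 of the 42 genes (26.2%, against 11.5%) and wholly above them for 3 (7.14%, against 11.3%), on counts scaled to a common library size after TMM normalization (CPM). On the deposited FPKM, which carries no such normalization, the same counts were 6 below and 4 above. The share of all tested genes is not given on that scale, so these FPKM counts cannot be set against a background. Within all 3 pairs of equal replicate number, 17 genes were lower each time, where 25.9% of all tested genes were, and 9 were higher each time, where 26.8% of all were.

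**Figure D1:**
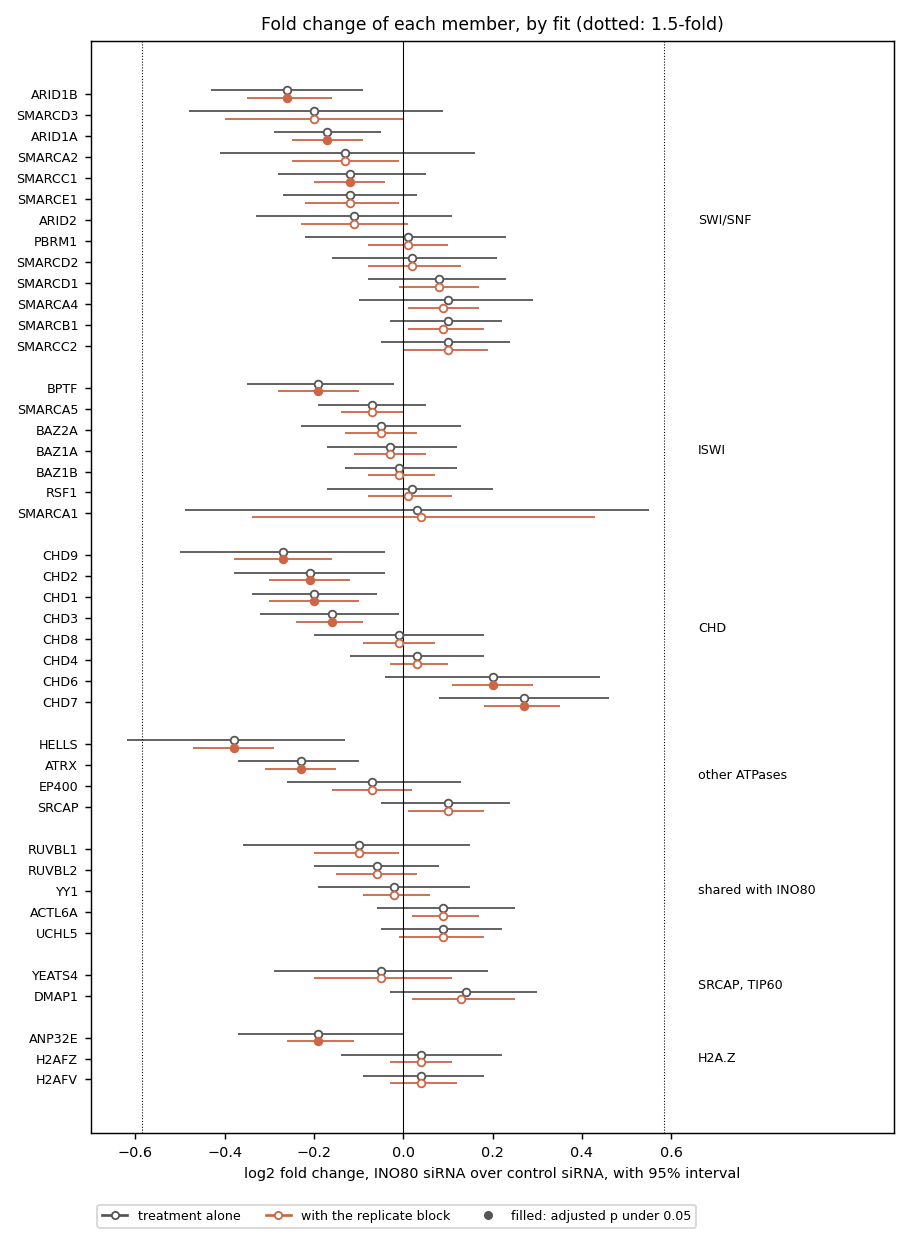
Log2 fold change of each of the 42 genes (INO80 siRNA over control siRNA, 3 libraries each) with its 95% interval, from edgeR with the treatment alone (grey) and with the replicate block (orange), in role groups. Filled points have an adjusted p under 0.05. No grey point is filled, 13 orange points are, and all but the HELLS interval of the grey fit lie between the dotted 1.5-fold lines.

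H2A.Z is encoded by H2AFZ (H2A.Z.1) and H2AFV (H2A.Z.2), and ANP32E is a chaperone that takes H2A.Z off chromatin. H2AFZ (ENSG00000164032, chromosome 4, 100869243 to 100871545, GRCh37) stood at 231.13, 268.21 and 260.56 FPKM under control siRNA and at 229.33, 280.20 and 279.16 FPKM under INO80 siRNA. Replicate 1 was the lowest library of each group, and the groups overlapped. The level put H2AFZ at percentile 99.4 of the tested genes. Its log2 fold change was 0.04 ± 0.078 (SE), with a 95% interval from -0.14 to 0.22 and an edgeR adjusted p of 0.842. H2AFV was measured at 30.03, 32.65 and 32.08 FPKM under control siRNA and at 30.08, 33.45 and 34.92 FPKM under INO80 siRNA, also with overlap (log2 fold change 0.04, interval -0.09 to 0.18). Per exonic length, H2AFZ made up 88.4% to 89.3% of the 2 transcripts in every library. Copies of H2AFZ elsewhere in the genome, 5 pseudogenes by name, had counts that summed to 0.0577% of its own.

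ANP32E, the chaperone, was at 52.25, 58.64 and 59.52 FPKM under control siRNA and at 43.53, 51.89 and 55.53 FPKM under INO80 siRNA. The groups overlapped, because INO80 siRNA replicate 3 lay above control replicate 1, but each INO80 siRNA library was below the control library of its number. The log2 fold change was -0.19 ± 0.081 (SE), with an edgeR adjusted p of 0.302 for the treatment alone and 0.000469 with the replicate block (1.64e-05 to 0.53 over all alternatives).

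**Figure D2:**
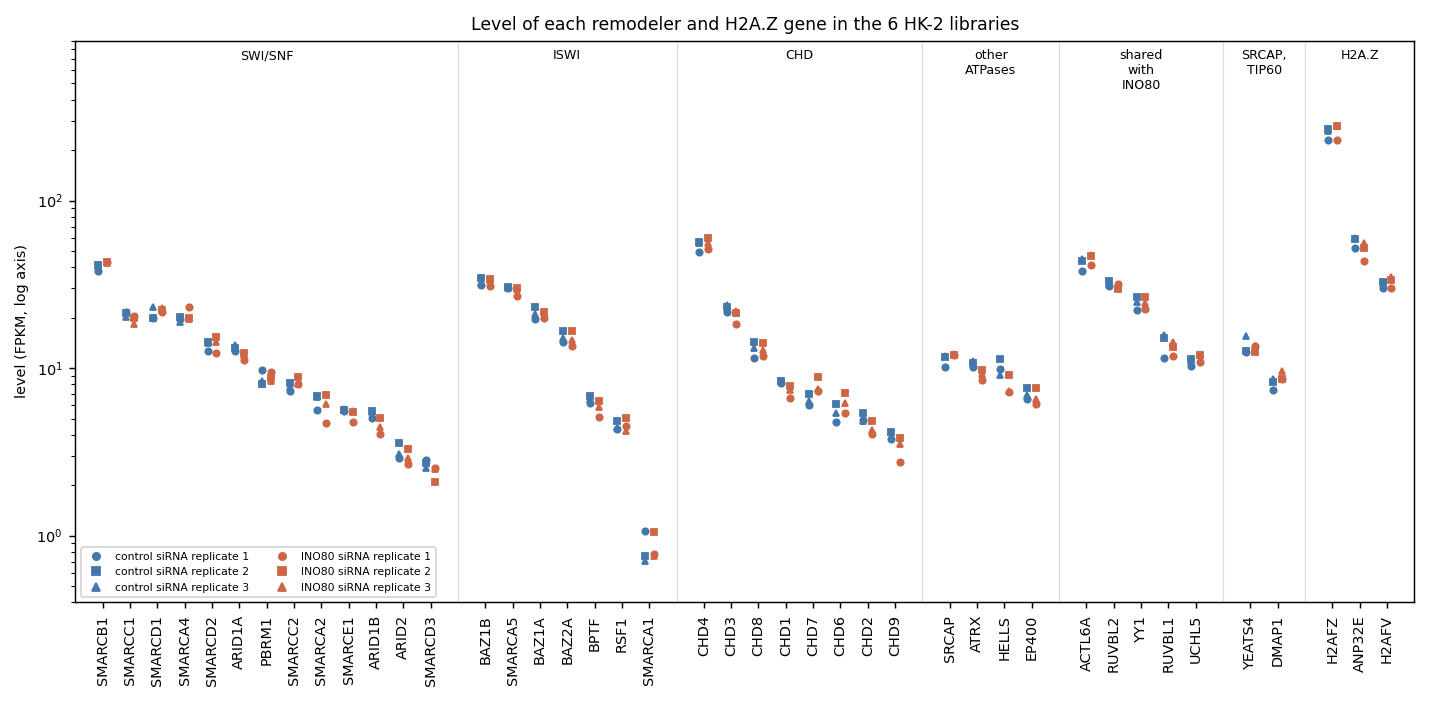
Level of each of the 42 genes in FPKM (log axis) in the 3 control siRNA (blue) and 3 INO80 siRNA (orange) libraries, with the marker shape giving the replicate number, in role groups sorted by level. H2AFZ was highest at 253 FPKM on average under control siRNA and SMARCA1 lowest at 0.843 FPKM, and the colours lie close together for every gene.

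SWI/SNF complexes were represented by 13 genes, none called with the treatment alone. With the block 3 were called lower (23.1%, against 13.4% of all tested genes) and 0 higher (against 11.4%). In either direction the block called 24.8% of all tested genes. The motors are SMARCA4 (BRG1) and SMARCA2 (BRM), of which a complex holds one. SMARCA4 was at 19.60, 20.06 and 18.77 FPKM under control siRNA and at 23.00, 20.00 and 19.76 FPKM under INO80 siRNA, and SMARCA2 was at 5.62, 6.81 and 6.74 FPKM and at 4.71, 6.89 and 6.10 FPKM. Both overlapped between groups, and SMARCA4 was the more abundant motor in all 6 libraries. The log2 fold change was 0.10 for SMARCA4 and -0.13 for SMARCA2, with edgeR adjusted p-values of 0.637 and 0.677. For SMARCA4 the value rested on INO80 siRNA replicate 1, and without that library it was -0.002. With the replicate block, the SMARCA4 value was 0.014 without replicate 1 and 0.11 without replicate 3, neither called. Without replicate 2 it was 0.14 and called higher (edgeR adjusted p 0.0417).

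The DNA-binding ARID subunits distinguish the SWI/SNF assemblies. ARID1A and ARID1B mark the BAF form, and ARID2 and PBRM1 the PBAF form. ARID1B was at 5.05, 5.57 and 5.49 FPKM under control siRNA and at 4.05, 5.04 and 4.48 FPKM under INO80 siRNA. ARID1A was at 12.70, 13.24 and 13.76 FPKM under control siRNA and at 11.25, 12.26 and 12.02 FPKM under INO80 siRNA. For both, every INO80 siRNA library was below every control library. The log2 fold change of ARID1B was -0.26 ± 0.0753 (SE; edgeR adjusted p 0.138 for the treatment alone, 0.000142 with the replicate block, 4.7e-06 to 0.378 over all alternatives). That of ARID1A was -0.17 ± 0.0536 (SE; edgeR adjusted p 0.164, 0.00253 with the replicate block, 0.000134 to 0.42 over all alternatives). The PBAF subunits ARID2 and PBRM1 overlapped between groups, with log2 fold changes of -0.11 and 0.01. Whether the BAF and PBAF genes differ in their response was not tested.

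Of the core scaffold, SMARCC1 (BAF155) was at 21.66, 21.26 and 20.29 FPKM under control siRNA and at 20.50, 19.81 and 18.38 FPKM under INO80 siRNA, lower in each numbered pair but with groups that overlapped. Its log2 fold change was -0.12 ± 0.0723 (SE; edgeR adjusted p 0.479, 0.0226 with the replicate block, 0.000631 to 0.824 over all alternatives). SMARCC2 (BAF170) was at 7.31, 8.14 and 7.71 FPKM and at 8.07, 8.79 and 8.08 FPKM, a log2 fold change of 0.10 without a call. SMARCB1, a core subunit and tumour suppressor, was at 37.84 to 40.98 FPKM under control siRNA and at 42.52 to 43.00 FPKM under INO80 siRNA. The groups did not overlap, and its log2 fold change of 0.10 was not called (edgeR adjusted p 0.442, and 0.111 with the replicate block). SMARCE1 (BAF57) was lower without overlap, at 5.58 to 5.71 FPKM against 4.74 to 5.52 FPKM, and was not called (edgeR adjusted p 0.408, and 0.0917 with the replicate block). The SMARCD subunits, which link the complexes to transcription factors, gave log2 fold changes of 0.08 for SMARCD1, 0.02 for SMARCD2 and -0.20 for SMARCD3, none called. In the annotation SMARCC2 overlaps MYL6 on the opposite strand, whose count is 1758% of its own, SMARCD3 overlaps CHPF2 (793%) and PBRM1 overlaps GNL3 (115%). The libraries were made with a directional kit, the strand setting of the counting is not given in the sources used here, and reads of such partners may not be fully separated.

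The ISWI motors are SMARCA5 (SNF2H) and SMARCA1 (SNF2L), and their partners set which complex they form. SMARCA5 was at 30.20, 30.40 and 30.00 FPKM under control siRNA and at 27.03, 30.04 and 29.85 FPKM under INO80 siRNA. The groups did not overlap in CPM, with INO80 siRNA replicate 1 the lowest library, and the log2 fold change was -0.07 (edgeR adjusted p 0.575, and 0.173 with the replicate block). SMARCA1 was the least abundant of the 42, at 0.71 to 1.06 FPKM under control siRNA and 0.76 to 1.05 FPKM under INO80 siRNA, with a lowest count of 56. Of the partners, BPTF, the large subunit of NURF, was at 6.22, 6.83 and 6.50 FPKM and at 5.14, 6.33 and 5.84 FPKM. In CPM its groups did not overlap, and the log2 fold change was -0.19 ± 0.0717 (SE; edgeR adjusted p 0.244, 0.00226 with the replicate block, 0.00226 to 0.493 over all alternatives). BAZ1A (ACF), BAZ1B (WICH), BAZ2A (NoRC) and RSF1 gave log2 fold changes between -0.05 and 0.02, all overlapping and none called. BPTF was the single ISWI gene of 7 called with the block (14.3%). Of all tested genes the block called 24.8% in either direction and 13.4% lower.

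Among the role groups, the CHD family held the largest share of calls with the replicate block, 6 of 8 (75%, against 24.8% of all tested genes), in both directions. CHD1 and CHD2 remodel chromatin at transcribed genes. CHD1 was at 8.20, 8.39 and 8.34 FPKM under control siRNA and at 6.65, 7.79 and 7.44 FPKM under INO80 siRNA, and CHD2 was at 4.91, 5.37 and 4.80 FPKM and at 4.05, 4.81 and 4.25 FPKM. CHD9, a relative of CHD6 to CHD8, was at 3.78, 4.15 and 4.15 FPKM and at 2.74, 3.84 and 3.52 FPKM. In CPM none of the 3 genes overlapped between groups, and CHD9 was lowest in INO80 siRNA replicate 1. Log2 fold changes were -0.20 ± 0.0623 for CHD1, -0.21 ± 0.074 for CHD2 and -0.27 ± 0.102 for CHD9 (SE). Their edgeR adjusted p-values were 0.163, 0.198 and 0.237 with the treatment alone and 0.00336, 0.000726 and 0.000562 with the replicate block. Over all alternatives they ran from 0.00336 to 0.381 for CHD1, from 0.000387 to 0.487 for CHD2 and from 1.61e-05 to 0.449 for CHD9. A gene listed on the same strand at CHD2, AC013394.2, had a count of its own equal to 30.6% of that of CHD2.

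CHD3 and CHD4 are alternative motors of NuRD, which joins nucleosome remodeling to histone deacetylation. CHD3 was at 21.51, 23.13 and 23.84 FPKM under control siRNA and at 18.33, 21.26 and 22.06 FPKM under INO80 siRNA, lower without overlap in CPM. Its log2 fold change was -0.16 ± 0.0669 (SE; edgeR adjusted p 0.274, 0.0013 with the replicate block, 0.000177 to 0.51 over all alternatives), and LSMD1, which overlaps it on the opposite strand, had a count of its own equal to 15.1% of that of CHD3. CHD4, the more abundant motor, was at 49.38, 56.73 and 55.55 FPKM and at 51.40, 59.66 and 55.52 FPKM, with a log2 fold change of 0.03 and a 95% interval from -0.12 to 0.18.

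The chromodomain proteins CHD6 and CHD7 were the 2 genes called higher, and CHD8 belongs to the same subfamily. CHD7, the gene mutated in CHARGE syndrome, was at 6.03, 7.03 and 6.39 FPKM under control siRNA and at 7.28, 8.83 and 7.46 FPKM under INO80 siRNA. Every INO80 siRNA library was above every control library, with a log2 fold change of 0.27 ± 0.0832 (SE; edgeR adjusted p 0.16, 4.59e-05 with the replicate block, 9.98e-08 to 0.374 over all alternatives). CHD6 was at 4.74, 6.08 and 5.39 FPKM and at 5.42, 7.10 and 6.21 FPKM, overlapping between groups but higher in each numbered pair. Its log2 fold change was 0.20 ± 0.104 (SE; edgeR adjusted p 0.4, 0.00133 with the replicate block, 0.000191 to 0.703 over all alternatives). CHD8 overlapped throughout, with a log2 fold change of -0.01 and a 95% interval from -0.20 to 0.18.

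**Figure D3:**
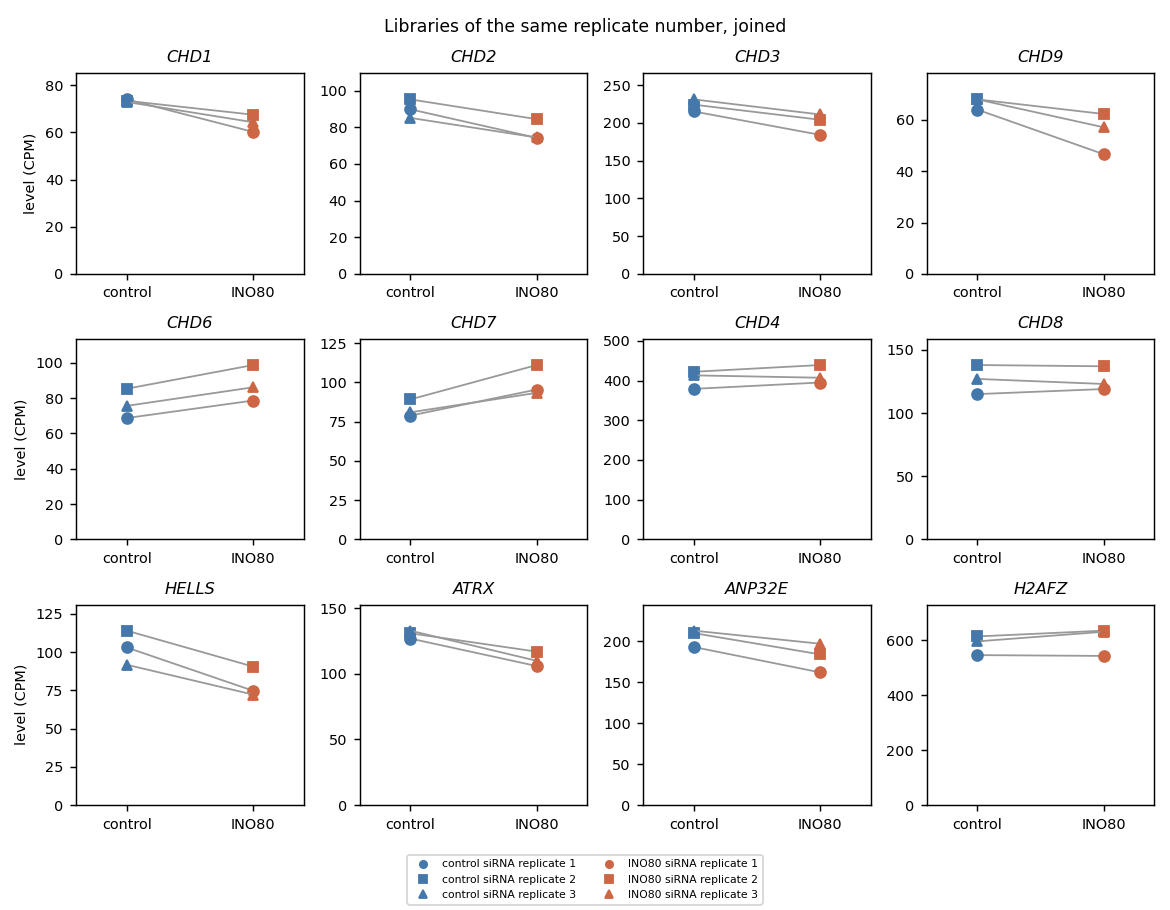
Level in CPM after TMM normalization of the 8 CHD genes, HELLS, ATRX, ANP32E and H2AFZ, with a line joining the control siRNA and INO80 siRNA libraries of the same replicate number and each axis starting at 0. Lines run down in all 3 pairs for CHD1, CHD2, CHD3, CHD9, HELLS, ATRX and ANP32E and up in all 3 for CHD6 and CHD7, while CHD4, CHD8 and H2AFZ have lines in both directions.

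HELLS (LSH) is a motor that maintains DNA methylation at repeats and acts in proliferating cells. HELLS (ENSG00000119969, chromosome 10, 96305547 to 96373662, GRCh37) was at 9.91, 11.32 and 9.13 FPKM under control siRNA and at 7.18, 9.10 and 7.27 FPKM under INO80 siRNA. The groups did not overlap, although INO80 siRNA replicate 2 lay just below control replicate 3. The log2 fold change was -0.38 ± 0.107 (SE), a fold of 0.77, with a 95% interval from -0.62 to -0.13. The edgeR adjusted p was 0.129 with the treatment alone and 4.1e-07 with the replicate block, DESeq2 gave 0.0346, and the range over all alternatives was 6.4e-13 to 0.373. ATRX deposits the variant H3.3 at repeats together with DAXX. ATRX (ENSG00000085224, chromosome X, 76760356 to 77041702, GRCh37) was at 10.15, 10.75 and 10.97 FPKM and at 8.46, 9.73 and 9.16 FPKM, again with no overlap. Its log2 fold change was -0.23 ± 0.0587 (SE; edgeR adjusted p 0.0996, 0.000121 with the replicate block, 2.37e-07 to 0.317 over all alternatives).

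SRCAP and EP400 are the motors that place H2A.Z, and neither was called in either fit. SRCAP was at 10.16, 11.58 and 11.76 FPKM under control siRNA and at 11.97, 11.94 and 12.10 FPKM under INO80 siRNA. The groups did not overlap, by a margin far below the spread of the control libraries, and the log2 fold change was 0.10 (95% interval -0.05 to 0.24, edgeR adjusted p 0.497, and 0.106 with the replicate block). EP400 was at 6.57, 7.57 and 6.92 FPKM and at 6.09, 7.65 and 6.54 FPKM, with overlap and a log2 fold change of -0.07 (95% interval -0.26 to 0.13). DMAP1 and YEATS4, subunits of the SRCAP and TIP60 complexes, gave log2 fold changes of 0.14 and -0.05, and neither was called. DMAP1 was at 7.38, 8.22 and 8.58 FPKM and at 8.62, 8.59 and 9.55 FPKM, apart by a narrow margin in FPKM but overlapping in CPM, and YEATS4 overlapped in both.

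The 5 subunits that INO80 shares with other complexes were not called in either fit. ACTL6A (BAF53A), an actin-related protein also found in SWI/SNF, was at 37.80 to 44.61 FPKM under control siRNA and at 41.35 to 47.31 FPKM under INO80 siRNA, a log2 fold change of 0.09. The hexameric ATPases RUVBL1 and RUVBL2 gave -0.10 and -0.06, the deubiquitinase UCHL5 gave 0.09 and the DNA-binding protein YY1 gave -0.02, and all 5 overlapped between groups. Both RUVBL genes were called lower with the block once replicate 1 was left out. On the opposite strand, SEC61A1 overlaps RUVBL1 and had a count of its own equal to 612% of that of RUVBL1. The same ratio was 64.2% for TROVE2, which overlaps UCHL5, and 33.9% for MRPL47, which overlaps ACTL6A. INO80 itself had a log2 fold change of -1.90 in the same libraries.

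Paralogs were also compared as ratios within each library, which do not depend on scaling between libraries. In 2 of 9 pairs the ratios did not overlap. SMARCC1 over SMARCC2 was 2.96, 2.61 and 2.63 under control siRNA and 2.54, 2.25 and 2.27 under INO80 siRNA, a log2 difference of -0.22. CHD4 over CHD3 was 2.30, 2.45 and 2.33 and then 2.80, 2.81 and 2.52, a log2 difference of 0.20. The denominators SMARCC2 and CHD3 overlap MYL6 and LSMD1 on the opposite strand, as given above. Reads of these partners may not be fully separated, which a ratio within a library does not remove. The exact two-sided permutation p was 0.1 for each, the smallest that 3 against 3 libraries allow, and 0.45 after Benjamini-Hochberg adjustment over the 9 pairs, so neither passed. This test does not use the replicate numbers. Within the numbered pairs of libraries, the log2 ratio of SMARCC1 over SMARCC2 differed by -0.22, -0.21 and -0.21, and that of CHD4 over CHD3 by 0.29, 0.19 and 0.11. ARID1A over ARID1B was higher and RUVBL1 over RUVBL2 lower in all 3 numbered pairs, although their groups overlapped. The other 7 ratios overlapped between groups. SMARCA4 over SMARCA2 showed the widest gap among them, a log2 difference of 0.23 with an exact permutation p of 0.6. ARID1A over ARID1B differed by 0.09, and H2AFZ over H2AFV was 7.70, 8.22 and 8.12 and then 7.62, 8.38 and 7.99.

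**Figure D4:**
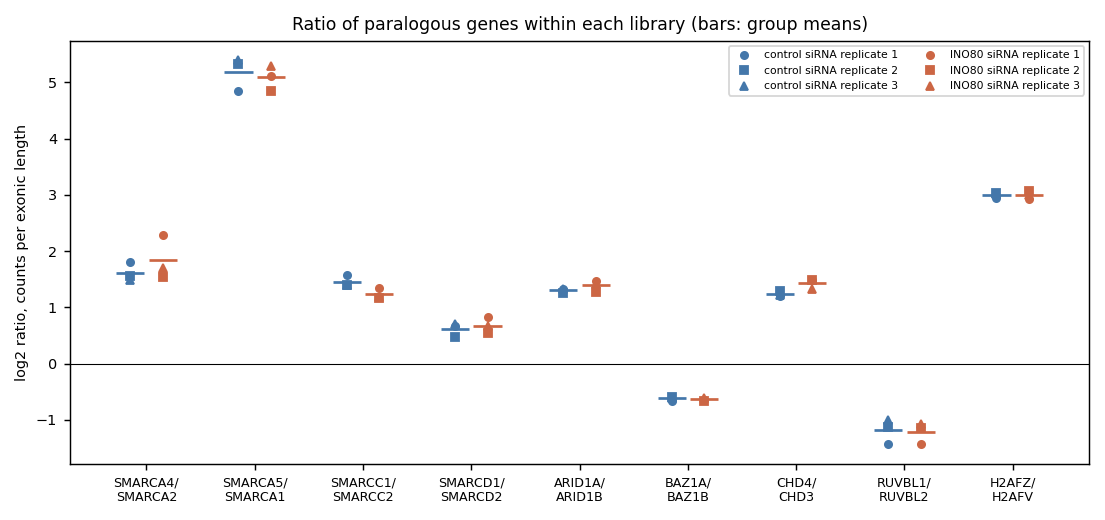
Log2 ratio of counts per exonic length for 9 pairs of paralogs in each library (blue, control siRNA; orange, INO80 siRNA; shapes, replicate number; bars, group means of 3). SMARCC1/SMARCC2 and CHD4/CHD3 are the pairs whose colours separate, and H2AFZ/H2AFV stays near 3 in all 6 libraries.

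Other genes of the same complexes and families were taken as a second list of 78, of which 75 were tested. With the treatment alone edgeR called 1, INO80. With the replicate block it called 19, 8 lower (INO80 included) and 11 higher, a share of 25.3% that is near the 24.8% of all tested genes. By group, the block called 5 of the 10 subunits particular to the INO80 complex (2 lower, 3 higher). INO80 itself, the target of the siRNA, is among the 10 and is 1 of those 2 lower. The block called 4 of 14 further SRCAP and TIP60 subunits (2 lower, 2 higher), 3 of 12 NuRD subunits (2 lower, 1 higher) and 1 of 13 further SWI/SNF subunits (higher). It also called 0 of 6 further ISWI partners, 5 of 16 other SNF2-family helicases and chaperones of H2A variants (1 lower, 4 higher) and 1 of 4 other H2A variant genes (lower). Without INO80 the median log2 fold change of this list was 0.056, beside -0.038 for the 42 genes and 0.007 for all tested genes.

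Many of the 42 genes varied with the replicate number. Replicate 1 was the lowest library of both groups for 22 of the 42 (52.4%, against 24.7% of all tested genes) and the highest of both for 4 (SMARCA4, SMARCC1, SMARCD3 and PBRM1; 9.52%, against 24.1%). Over the 42 genes, the deviations of same-numbered libraries from their group means correlated at 0.438, 0.43 and 0.68, and those of differently numbered libraries at -0.524 to -0.00766. The latter are pushed down by the former, because deviations from a group mean cancel within the group. These genes are not independent of each other. Log2 fold change and exonic length had a Spearman correlation of -0.3 over the 42 genes, and of -0.037 over all tested genes, as a description in which all points share the 6 libraries. DCN and LUM, genes typical of fibroblasts, were highest in replicate 1 of both groups, with DCN at 4.95, 0.87 and 0.80 FPKM under control siRNA and at 5.73, 1.12 and 1.17 FPKM under INO80 siRNA, while COL1A2 and COL3A1 were at or near 0. Whether length, replicate 1 or such genes have a part in the lower values was not tested.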

How the data were processed

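Poly(A) RNA libraries of HK-2 cells, 3 with control siRNA and 3 with INO80 siRNA, were read from 1 deposited table with a raw count and an FPKM per gene and library. The counts were deposited by the authors without normalization, and the authors' FPKM is the count scaled by exonic length and library total. The submitters' processing notes name HISAT2 2.0.1, HTSeq and hg19, the study's methods name ELAND and hg38, and the coordinates of the table are those of GRCh37. In R 4.3.3, counts were filtered with filterByExpr, scaled by TMM and fitted with edgeR 4.0.16 (quasi-likelihood test), the treatment alone as the model, with Benjamini-Hochberg adjustment over 15343 genes and no limit on fold change. Columns of the authors' own annotation were not used as measurements. The main fit does not use the replicate numbers. Same-numbered libraries are taken as paired only in the replicate block and in comparisons within numbered pairs. The reason is that their deviations over all tested genes correlated at 0.639, 0.446 and 0.427 and those of different numbers at 0.165 or less. Deviations from a group mean cancel within the group. Positive values for equal numbers thus push those of different numbers down, and the latter are not separate evidence of pairing. The numbers come from the sample titles, and nothing else says that they mark a shared culture or day. Alternatives were the replicate block, DESeq2 1.42.0, no filter or a mean FPKM of at least 1, other size factors, and each library left out. DESeq2 with the block, and the block with each pair of libraries left out, were also run. Some low ends of the ranges over all alternatives come from the block with a pair left out. Those edgeR fits rest on fewer libraries. For INO80 the adjusted p was 8.66e-17 with the block and 3.89e-144 once replicate 1 was left out. A low end is therefore not stronger evidence. Intervals cover 95%, and depth limits the precision of low genes. The edgeR fit was tested on simulated data. With the treatment alone it recovered 31 of 53 genes (58.5%) changed by a log2 fold change of 0.5. Those data held no shared effect of the replicate number, unlike the real libraries. With the replicate block and such an effect drawn, it recovered 31 of 55 (56.4%). Changes as small as those of the 42 genes were not simulated, so the power to call them is not known. The genes named by rule are all 42 members, INO80, and other listed genes called with the treatment alone (INO80 itself). Markers come from cell type lists, and the markers named, genes that overlap a member, and SMARCAL1, INO80E and H2AFY2 were picked after their values were seen. The members and lists were chosen with earlier results of these data known. Results for some marker genes are not reported here.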

Additional observations from a re-analysis of the deposited data

How the results depend on the processing

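With 3 libraries per group the count of calls among the 42 genes turned on the model. It was 0 with the treatment alone, on genes whose mean FPKM reached 1, with median-ratio or unscaled library sizes and with any library left out (0 to 0). Those fits called 0.115% to 2.52% of all tested genes. Without a filter on low counts it was 2 (CHD7 and HELLS), where 2.43% of all tested genes were called. It was 1 with DESeq2 (4.93% of all genes it gave an adjusted p) and 13 with the replicate block (24.8% of all tested genes). With DESeq2 and the block it was 12 (15% of all genes given an adjusted p). With the block and a pair of libraries left out it was 11 to 15 (14.6% to 25.4% of all tested genes). Of 75 other genes of these complexes that were tested (77 without a filter or with DESeq2) 1 was called, against 4 without a filter, 3 with DESeq2, 19 with the block, 6 with DESeq2 and the block, and 8 to 19 with the block and a pair left out (1 to 1 with single libraries left out). For these other genes too, the shares of all genes called by each setting are those given above. INO80 kept its direction and call throughout. The count of genes without overlap between groups, 14, became 26 when the 3 numbered pairs had to share a direction. Over all 15343 tested genes the same counts were 3502 and 8083, so the rise was not particular to the 42 genes. Of 42 fold changes, 29 kept their sign under all 16 alternatives. The others lay close to 0 and turned with single libraries left out, where their log2 fold changes ran from -0.002 to 0.15 (SMARCA4), -0.034 to 0.09 (SMARCD2), -0.066 to 0.11 (PBRM1), -0.13 to 0.24 (SMARCA1), -0.065 to 0.026 (BAZ1A), -0.028 to 0.03 (BAZ1B), -0.12 to 0.001 (BAZ2A), -0.044 to 0.086 (RSF1), -0.012 to 0.065 (CHD4), -0.075 to 0.056 (CHD8), -0.068 to 0.037 (YY1), -0.11 to 0.054 (YEATS4) and -0.005 to 0.11 (H2AFZ). With the replicate block and a pair left out they turned in SMARCD2 (-0.009), PBRM1 (-0.030), SMARCA1 (-0.19), BAZ1A (0.014), BAZ1B (0.010), RSF1 (-0.013 and -0.007), CHD8 (0.014) and YEATS4 (0.047). BAZ1B was 0.005 and CHD8 0.001 without a filter, and BAZ1B 0.004 with unscaled sizes. Paralog log2 ratios turned likewise for SMARCA5/SMARCA1 (-0.28 to 0.021), SMARCD1/SMARCD2 (-0.016 to 0.12), RUVBL1/RUVBL2 (-0.15 to 0.072) and H2AFZ/H2AFV (-0.037 to 0.031). The cause of these changes was not tested.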

Other observations

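Among the other genes of these complexes, DESeq2 called INO80 lower and 2 genes higher. The 2 higher genes were chosen after their values were seen. SMARCAL1, a helicase that restarts stalled replication forks, was at 6.46, 7.44 and 6.83 FPKM under control siRNA and at 8.49, 8.86 and 8.71 FPKM under INO80 siRNA. INO80E, a subunit of the INO80 complex, was at 7.01, 6.81 and 7.41 FPKM and at 9.40, 8.69 and 8.56 FPKM. In both, every INO80 siRNA library was above every control library, and both log2 fold changes were 0.32. The adjusted p was 0.0627 for SMARCAL1 and 0.0872 for INO80E with edgeR and the treatment alone, 0.000162 and 0.000116 with the replicate block, and 0.0262 and 0.034 with DESeq2. H2AFY2, which encodes the histone variant macroH2A2, was at 18.46, 24.69 and 24.85 FPKM under control siRNA and at 12.04, 19.70 and 19.09 FPKM under INO80 siRNA, lower in each numbered pair with groups that overlapped. Its log2 fold change was -0.43 ± 0.173 (SE), with an edgeR adjusted p of 0.262 and, with the replicate block, of 5.42e-06. It too was chosen after its values were seen.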
